A study of Rattus norvegicus with 24 samples.

Results

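The strength of the response to lipopolysaccharide (LPS) was followed through 12 RNA-seq libraries of neonatal rat microglia, which are the resident macrophages of the brain. The 12 LPS libraries, of 24 in the series, were placed in order by their level of Cxcl10, in CPM, the counts of a gene scaled to the total of the library's counts on genes. Every other gene was then compared with that order, so the order and the genes said to follow it were selected on measured values and are given as a description. Sprague-Dawley pups of both sexes spent 8 days in room air (normoxia, Nx, 21% O2) or in intermittent hypoxia (IH), with 2 min cycles of 10.5% and 21% O2 for 8 h per day. At postnatal day 9, 16 h after the last exposure, they were injected intraperitoneally with vehicle or LPS, and microglia were isolated 3 h later with magnetic beads to CD11b/c, a surface protein pair shared by microglia and other myeloid cells. The dose is given as 0.1 mg/kg in the study's methods, while the sample labels give a concentration in place of a dose and name a different vehicle. The 8 groups of sex, oxygen and injection had 3 libraries each, so the LPS libraries were 6 Nx LPS and 6 IH LPS, and vehicle libraries of the same sexes and exposures were the other 12. The labels give the sex and number of each library but no litter, batch or cage.

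LPS is sensed by toll-like receptor 4 on microglia, which starts a pair of signalling branches. The first releases the transcription factor NF-kB and raises cytokines, chemokines and adhesion molecules within hours. The second leads to type I interferon, whose receptor activates STAT proteins and interferon regulatory factors, and genes such as Cxcl10 and Irf1 carry sites for both. Cxcl10 is a chemokine that draws in T cells and natural killer cells, and it is widely used as a read-out of the interferon side of the response.

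Names were available for 21 genes, which are those that the study pairs with an Ensembl identifier, and 12 of them are NF-kB targets. The study listed these genes for differences found in these same libraries, and the 12 targets for a lower level with IH in LPS females. Since IH LPS libraries fill much of the low end of the Cxcl10 order, the choice of these targets itself leans toward a positive relation with it, and their values are not independent evidence of one. Known microglial markers, and markers of other brain or blood cells, were not checked, because the files hold identifiers without names. Upstream sequences are shown first, for those named LPS-raised genes whose window held a motif match. Each is the 250 bases before the annotated start, from RefSeq on build GRCr8, written in the direction of transcription. Capitals mark matches on either strand to an NF-kB consensus, to the interferon-stimulated response element (ISRE, searched as GAAANNGAAA) or to the gamma-activated site bound by STAT proteins (GAS, searched as TTCNNNGAA). Cxcl10, Irf1 and Icam1 belong to the set whose levels lay close to the order, and Cxcl1 and Il6 are chemokine and cytokine genes whose levels lay further from it. These windows were picked by their matches, so a relation between motifs and the order cannot be read from them.
Cxcl10, chr14:15988816-15989065, forward strand: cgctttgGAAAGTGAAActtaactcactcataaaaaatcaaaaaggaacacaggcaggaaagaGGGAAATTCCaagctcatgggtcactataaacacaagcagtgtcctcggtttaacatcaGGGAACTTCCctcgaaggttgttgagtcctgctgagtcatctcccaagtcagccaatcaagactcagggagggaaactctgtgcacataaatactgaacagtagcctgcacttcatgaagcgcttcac
Irf1, chr10:38417685-38417934, forward strand: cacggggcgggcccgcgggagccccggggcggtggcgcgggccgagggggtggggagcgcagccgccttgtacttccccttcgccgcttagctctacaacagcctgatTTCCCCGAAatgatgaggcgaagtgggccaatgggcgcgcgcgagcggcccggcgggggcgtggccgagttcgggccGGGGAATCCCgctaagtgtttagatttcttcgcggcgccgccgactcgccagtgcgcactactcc
Icam1, chr8:27829595-27829844, forward strand: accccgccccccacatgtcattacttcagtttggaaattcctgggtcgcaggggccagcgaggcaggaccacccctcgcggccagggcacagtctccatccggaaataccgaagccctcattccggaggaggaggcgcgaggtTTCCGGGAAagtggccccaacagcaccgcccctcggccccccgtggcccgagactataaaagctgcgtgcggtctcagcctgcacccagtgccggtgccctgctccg
Cxcl1, chr14:17479322-17479571, reverse strand: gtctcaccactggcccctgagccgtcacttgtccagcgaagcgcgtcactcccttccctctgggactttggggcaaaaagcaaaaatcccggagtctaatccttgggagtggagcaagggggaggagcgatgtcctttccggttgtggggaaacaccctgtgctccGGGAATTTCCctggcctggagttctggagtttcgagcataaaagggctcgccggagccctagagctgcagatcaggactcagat
Il6, chr4:5894576-5894825, reverse strand: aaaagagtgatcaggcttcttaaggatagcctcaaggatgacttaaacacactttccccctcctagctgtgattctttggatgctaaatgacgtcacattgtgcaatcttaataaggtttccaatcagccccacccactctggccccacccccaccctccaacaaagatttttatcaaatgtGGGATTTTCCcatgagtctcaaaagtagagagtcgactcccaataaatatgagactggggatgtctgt
Among 33469 promoter windows of this length, 4.42% held the NF-kB consensus, 3.41% the ISRE and 7.67% the GAS. Positions are counted back from the start of the gene. In Cxcl10 the ISRE lay at -243 to -234, and NF-kB matches lay at -187 to -178 and at -128 to -119. Irf1 had a GAS at -142 to -134 and an NF-kB match at -65 to -56, and Icam1 had a GAS at -107 to -99. The NF-kB matches of Cxcl1 and Il6 were at -84 to -75 and at -68 to -59. Of the 13 named genes raised by LPS, 10 had a window in the table, and 4 of these held the NF-kB consensus, 2 the GAS and 1 the ISRE. No match was found for Il1a, Cd83, Ptgs2, Sele or Cxcl9, which says only that these letters are absent from this window. The same holds for a motif missing beside another, such as NF-kB in the window of Icam1. Birc3, Csf3 and Plat are named only.

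The LPS libraries held 6928225 to 8548714 counts on genes. A pair of LPS libraries, male Nx LPS 2 and male IH LPS 3, stood apart with low Cxcl10, and the main results are given below with and without them. Of 4 library measures set against log2 Cxcl10 over the 12 libraries, the share of reads that fell on no annotated gene had the highest Pearson's r, 0.728 (permutation test, two-sided, p = 0.0126, adjusted p = 0.0503). Its Spearman's rho was 0.504 (permutation test, p = 0.101, adjusted p = 0.405), and Pearson's r was 0.461 without male Nx LPS 2 and male IH LPS 3. Total counts, the share of reads at more than 1 place and the share of ambiguous reads gave r of -0.370, -0.087 and 0.089 (permutation tests, p = 0.249, 0.745 and 0.737). The part of these measures in the results below was not tested.

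Cxcl10 varied far more among the LPS libraries than among the vehicle libraries. From lowest to highest it was at 21.2 CPM in male IH LPS 3, 124 in male Nx LPS 2, 457 in female IH LPS 2, 691 in female IH LPS 1, 993 in male IH LPS 2 and 1185 in male IH LPS 1. It was then at 1593 CPM in female IH LPS 3, 1798 in female Nx LPS 2, 1942 in female Nx LPS 1, 2214 in female Nx LPS 3, 2623 in male Nx LPS 1 and 2972 in male Nx LPS 3. The highest was 140.4 times the lowest, 24.02 times without male IH LPS 3 and 6.5 times without male Nx LPS 2 as well, while vehicle libraries ran from 4.23 to 14.6 CPM with a median of 7.52. All 12 LPS libraries lay above all 12 vehicle libraries, although male IH LPS 3, with 181 counts, was close to the highest of them. No library's 95% exact Poisson interval overlapped that of its neighbour in the order, which covers counting error only. In such bulk samples fewer responding cells and less Cxcl10 RNA per cell cannot be told apart.

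**Figure D1:**
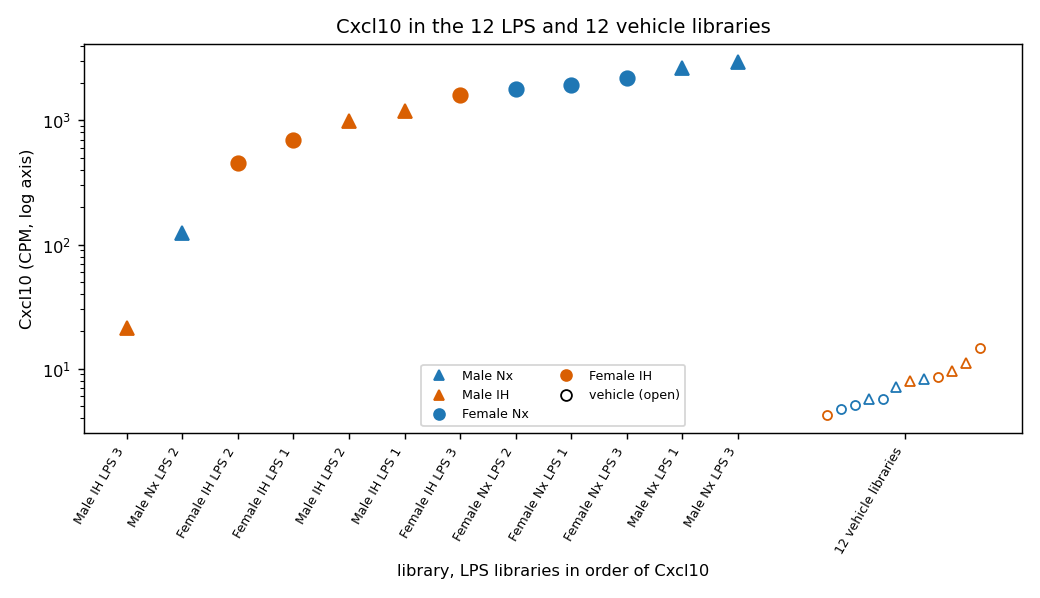
Cxcl10 in CPM, on a log axis, for each of the 12 LPS libraries in order (filled) and for the 12 vehicle libraries (open), with colour for oxygen and shape for sex. The LPS libraries climb from 21.2 to 2972 CPM, 5 of the 6 Nx LPS libraries fill the top of the order, and the vehicle libraries stay at or below 14.6 CPM.

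The oxygen groups were unevenly placed in the order, with 1 exception on the Nx side. The 5 highest libraries were all Nx LPS, and the 6 IH LPS libraries held the 1st and the 3rd to 7th places, with male Nx LPS 2 in the 2nd. Cxcl10 was at 823 ± 556 CPM (SD, n = 6) in IH LPS and 1945 ± 993 CPM (SD, n = 6) in Nx LPS. The groups overlapped through male Nx LPS 2 alone, and in females they did not overlap. The mean difference, IH minus Nx, was -1.53 on the log2(CPM + 1) scale (exact permutation test within sex, two-sided, 400 labellings, p = 0.24). The study listed Cxcl10 for a lower level with IH in the LPS females of these libraries, so tests of this difference are not independent of that choice. edgeR's quasi-likelihood test gave a log2 fold change of -1.28 (SE 0.78, adjusted p = 1.00), and it called 0 genes for IH in LPS libraries, with 208 at an unadjusted p below 0.05 and 0 called by DESeq2. Without male Nx LPS 2 the exact p was 0.02, and without male IH LPS 3 it was 0.505. With both left out, Cxcl10 was at 984 ± 440 CPM in 5 IH LPS and 2310 ± 486 CPM in 5 Nx LPS libraries (SD). The groups then did not overlap, as without male Nx LPS 2 alone. The exact p was then 0.0167, the smallest that 120 labellings can give, but the libraries were left out for the very values tested. edgeR's log2 fold change without both was -1.27 (SE 0.30, adjusted p = 1.00). Male libraries held the 2 lowest and the 2 highest places, and females lay between. The difference by sex, female minus male, was 1.21 on the log2(CPM + 1) scale (exact permutation test within oxygen, two-sided, p = 0.455).

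The order was not a matter of Cxcl10 alone. To read the wider response with genes that a library had no part in choosing, the 300 genes raised at a log2 fold change above 1 in the 12 IH libraries were followed in Nx LPS libraries, and the 486 raised in the 12 Nx libraries were followed in IH LPS libraries. In male IH LPS 3, 44.9% of these genes lay above all vehicle libraries of the same oxygen group, against 68.7% to 93.2% in the other IH LPS libraries. In male Nx LPS 2 the share was 78.0%, against 91.7% to 96.3% in the other Nx LPS libraries. The median rise over the vehicle libraries of the same oxygen group was 0.27 on the log2(CPM + 1) scale in male IH LPS 3 and 0.85 in male Nx LPS 2. It was 0.79, 1.21, 1.03, 1.32 and 1.36 in the other IH LPS libraries and 1.77, 1.66, 1.67, 1.83 and 1.77 in the other Nx LPS libraries, in the order of Cxcl10. Thus the libraries low in Cxcl10 also rose less over the other LPS-raised genes. Across the 6 IH LPS libraries the rise had a Spearman's rho of 0.943 with Cxcl10, and across the 6 Nx LPS libraries 0.543. The Nx LPS libraries other than male Nx LPS 2 lay close together at 1.66 to 1.83, and the Pearson's r of 0.985 over the 6 rests on that library. The gene sets differ between the oxygen groups, so their rises are not compared.

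**Figure D2:**
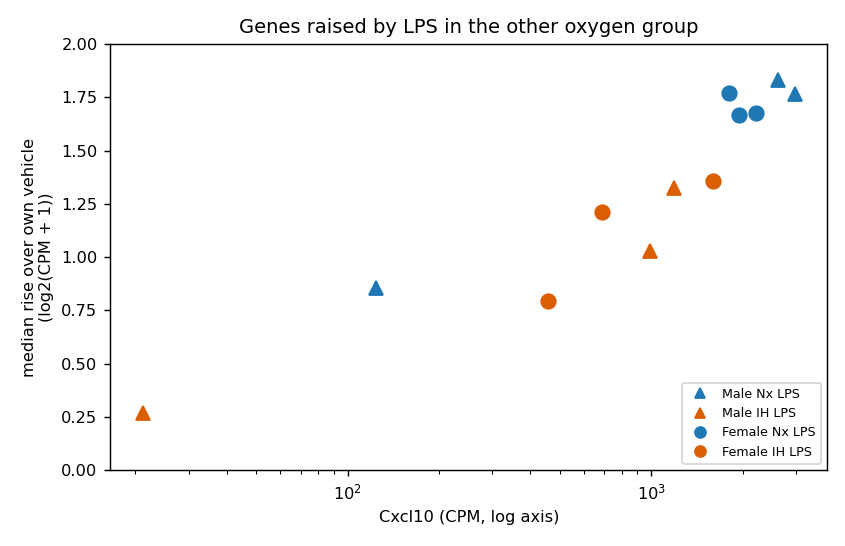
Median rise over the vehicle libraries of the same oxygen group, in log2(CPM + 1), against Cxcl10 in CPM on a log axis, for the 12 LPS libraries. Each library is read over genes called raised in the other oxygen group, 300 for Nx LPS and 486 for IH LPS, and the rise goes from 0.27 in male IH LPS 3 to 1.83 in male Nx LPS 1.

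Of 12374 other genes that passed a CPM of 1 in 3 or more LPS libraries, 106 (0.857%) followed the order, that is, had a Spearman's rho with Cxcl10 of 0.8 or more over the 12 libraries and of 0.6 or more within the 6 Nx LPS and within the 6 IH LPS libraries. In the opposite direction, with all 3 limits negative, 109 genes (0.881%) ran against it. All these points share their libraries, and no p is given because the rule used these values. A rho of 0.8 or more over the 12 libraries was reached by 158 genes, of which 39 fell short of 0.6 in Nx LPS libraries only, 11 in IH LPS libraries only and 2 in both. Another 222 genes had 0.6 or more in each oxygen group and less than 0.8 over all 12. The counts depended on single libraries. Followers numbered 69 without male Nx LPS 2, 67 without male IH LPS 3 and 182 without female Nx LPS 2. Genes against the order numbered 62 without male Nx LPS 2, 174 without male IH LPS 1, 168 without male IH LPS 2, 173 without female Nx LPS 1 and 255 without female Nx LPS 2. Without male Nx LPS 2 and male IH LPS 3, 53 genes followed, 38 of them among the 106, and 62 ran against, 35 of them among the 109. With CPM on TMM library sizes, which scale each library by the bulk of its genes, the split moved from 106 and 109 to 140 and 77. The measure mattered more, since Pearson's r of log2(CPM + 1) in place of rho gave 513 followers, 71 of them among the 106, and centring log2 values on the replicate number gave 257, 53 of them among the 106.

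Genes that matched the order in the Nx LPS libraries were then read in the IH LPS libraries, whose values had no part in choosing them, and the shares that carried over are given with and without male Nx LPS 2 and male IH LPS 3. Of 213 genes with a rho of 0.8 or more in Nx LPS libraries, 52 (24.4%) also had 0.8 or more in IH LPS libraries, where 4.36% of all genes did. From the other side, 52 of 539 genes (9.65%) chosen in IH LPS libraries had 0.8 or more in Nx LPS libraries, against 1.72% of all genes. Among LPS-raised genes alone, 44 of 150 (29.3%) carried over from Nx LPS to IH LPS, against 16.5% of all LPS-raised genes, though the LPS call itself used the IH LPS libraries. For a rho of -0.8 or less, 54 of 430 genes (12.6%) carried over from Nx LPS to IH LPS, against 3.90% of all genes. Without male Nx LPS 2 and male IH LPS 3, which leaves 5 libraries a group, 55 of 562 genes (9.79%) carried over from Nx LPS to IH LPS, against 5.30% of all genes, and 55 of 656 (8.38%) from IH LPS to Nx LPS, against 4.54%. Among LPS-raised genes alone the share was then 16.1%, against 14.5% of all of them, and for a rho of -0.8 or less 11.6%, against 11.4%. These last shares were taken from Nx LPS to IH LPS only, and 0.8 is a looser limit over 5 libraries than over 6. In the 12 vehicle libraries, which were not used for the order, the followers had a median rho with Cxcl10 of 0.03. That of all genes was -0.12, and 2 of the 106 (1.89%) reached 0.6, against 2.30% of all genes. Cxcl10 had only 28 to 112 counts in vehicle libraries, so its ranks there carry much counting error. A rho near 0 therefore cannot tell whether the relation is absent without LPS.

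LPS raised 1669 of 12860 genes (13%) and lowered 1461 (11.4%) over all 24 libraries by edgeR's quasi-likelihood test with a Benjamini-Hochberg adjusted p below 0.05. Without male Nx LPS 2 and male IH LPS 3 it raised 1879 and lowered 2102. Of the 1669 and 1461 genes called over all 24 libraries, 1667 raised and 1384 lowered genes could be ranked. The LPS call and the order share the 12 LPS libraries, so the counts that follow are descriptions. Among raised genes 102 (6.12%) followed the order, 2 ran against it and 464 (27.8%) had no rank relation, with a rho between -0.3 and 0.3, where 6081 of all 12374 genes (49.1%) had none. When male Nx LPS 2 and male IH LPS 3 were left out, 50 LPS-raised genes (3.00%) followed, against 0.428% of all genes. Then 736 LPS-raised genes had no rank relation, and the share of all genes without one was not taken for those libraries. Among lowered genes 81 (5.85%) ran against it, 0 followed and 425 (30.7%) had no rank relation. Of 9323 genes not called, 4 (0.043%) followed and 26 (0.279%) ran against. Of all genes, 0.857% followed and 0.881% ran against. The median rho was 0.45 for raised, -0.48 for lowered and -0.06 for uncalled genes, where that of all genes was -0.05. These medians were 0.28, -0.43, -0.14 and -0.12 without male Nx LPS 2 and male IH LPS 3. Over the 12 libraries most raised genes thus lay toward the order without meeting its limits, and lowered genes mirrored them.

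**Figure D3:**
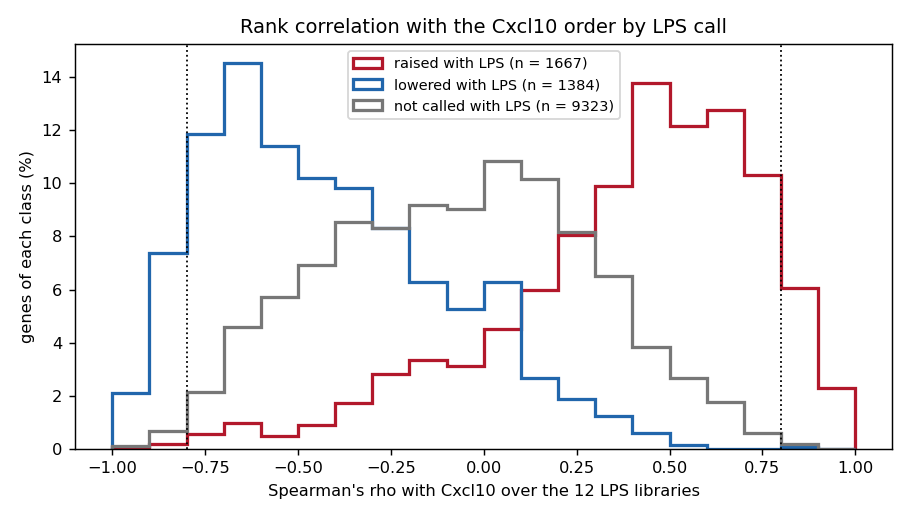
Distribution of Spearman's rho with Cxcl10 over the 12 LPS libraries, as the percent of genes in each class, for 1667 genes raised, 1384 lowered and 9323 not called with LPS. The raised genes centre on 0.45, the lowered on -0.48 and the uncalled on -0.06, and the dotted lines mark 0.8 and -0.8.

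The size of the LPS effect and the closeness to the order were related only in part. Of 1187 raised genes with a log2 fold change below 1, 35 (2.95%) followed. The share was 33 of 314 (10.5%) between 1 and 2, 30 of 134 (22.4%) between 2 and 4 and 4 of 32 (12.5%) at 4 or more. The median rho in these 4 bands was 0.41, 0.59, 0.66 and 0.62. The followers in these bands were 21, 14, 14 and 1, and the medians 0.25, 0.36, 0.45 and 0.37, without male Nx LPS 2 and male IH LPS 3. Raised followers had a median log2 fold change of 1.33 and raised genes with no rank relation 0.43. The mean level over the LPS libraries had a median of 59.5 CPM for raised followers, 45.2 CPM for raised genes with no rank relation and 24.3 CPM for all genes ranked, and a gene with more counts is ranked with less counting error.

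Irf1 (ENSRNOG00000008144), a transcription factor induced by interferon and NF-kB, had the highest rho with Cxcl10 over 12 libraries among the named genes. By Pearson's r of log2(CPM + 1), Birc3 at 0.979 and Icam1 at 0.958 lay closer than Irf1 at 0.903. Irf1 ran from 160 CPM in male Nx LPS 2 to 1300 CPM in male Nx LPS 3, with a median of 818 in the 12 LPS libraries. In the vehicle libraries it ran from 132 to 181 CPM. Male Nx LPS 2 thus lay within the vehicle range, while the other 11 LPS libraries lay above it, male IH LPS 3 only just at 185 CPM. The 3 highest libraries for Cxcl10 were also the 3 highest for Irf1, at 1254, 1251 and 1300 CPM. Its rho with Cxcl10 was 0.972 over 12 libraries, 0.886 in Nx LPS, 0.943 in IH LPS and 0.964 without male Nx LPS 2 and male IH LPS 3. LPS raised it by a log2 fold change of 2.26 (SE 0.28, adjusted p = 5.34e-06 from edgeR).

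Icam1 (ENSRNOG00000020679), an adhesion molecule that binds leukocyte integrins, also followed. It was at 209 CPM in male IH LPS 3, 1001 at the median and 1452 CPM in male Nx LPS 3, and at 102 to 152 CPM in vehicle libraries, so that all 12 LPS libraries lay above all vehicle libraries. Within the IH LPS libraries its order was that of Cxcl10 throughout, with a rho of 1. Within the Nx LPS libraries rho was 0.60, at the limit of the rule, and male Nx LPS 1, the second highest in Cxcl10, had 1078 CPM of Icam1. Over 12 libraries rho was 0.916, and 0.855 without male Nx LPS 2 and male IH LPS 3.

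Il1a (ENSRNOG00000004575), which encodes the cytokine interleukin 1 alpha, was the 3rd named gene to follow. It was at 17.4 CPM in male IH LPS 3, 45.1 at the median and 109 in male Nx LPS 3, against 5.74 to 35.1 CPM in vehicle libraries, and 9 of 12 LPS libraries lay above all of these. Its rho was 0.923 over 12 libraries, 0.60 in Nx LPS, 0.771 in IH LPS and 0.867 without male Nx LPS 2 and male IH LPS 3. Among the 5 higher Nx LPS libraries it went from 59.4 CPM in female Nx LPS 3 to 109 CPM, out of step with Cxcl10.

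Birc3 (ENSRNOG00000005731), an inhibitor of apoptosis induced by NF-kB, lay just outside the rule. It was at 5.97 CPM in male IH LPS 3, 89.4 at the median and 149.9 CPM in male Nx LPS 3, and at no more than 1.32 CPM in any vehicle library. Its rho was 0.944 over 12 libraries, 0.903 without male Nx LPS 2 and male IH LPS 3 and 1 in IH LPS libraries, but 0.543 in Nx LPS libraries, where female Nx LPS 2 and female Nx LPS 1 stood at 135 and 139 CPM and male Nx LPS 1 at 114. The difference from Icam1 and Il1a, which were just inside at 0.60, is a single step in the ranks of 6 libraries. LPS raised Birc3 by a log2 fold change of 6.56 (SE 0.48, adjusted p = 8.78e-09 from edgeR), the highest rise among these 4 genes.

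Cd83 (ENSRNOG00000018092), a surface protein of activated antigen-presenting cells, was closer to the order in IH LPS than in Nx LPS libraries. It was at 386 CPM in male IH LPS 3, 760 at the median and 1517 in female Nx LPS 2, against 273 to 398.5 CPM in vehicle libraries, which all LPS libraries but male IH LPS 3 exceeded. Its rho was 0.829 in IH LPS and 0.20 in Nx LPS, where male Nx LPS 1 had 702 CPM, and it was 0.741 over 12 libraries and 0.552 without male Nx LPS 2 and male IH LPS 3. The difference between the oxygen groups was not tested.

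Cxcl1 (ENSRNOG00000002802), a chemokine that draws in neutrophils, was strongly raised by LPS but ranked the libraries differently. It was at 1.52 CPM in male IH LPS 3, 9.51 at the median and 42.3 in male IH LPS 2, and no vehicle library exceeded 0.898 CPM. Male IH LPS 2, the 5th in Cxcl10, was the highest in Cxcl1, and male Nx LPS 1 and female Nx LPS 2 followed with 41.4 and 23.9 CPM. Male Nx LPS 3, the highest in Cxcl10, had 13.8 CPM. The rank correlation of Cxcl1 with Cxcl10 was 0.685 over 12 libraries, 0.429 in Nx LPS, 0.714 in IH LPS and 0.455 without male Nx LPS 2 and male IH LPS 3, against an LPS effect of 5.53 on the log2 scale (SE 0.65, adjusted p = 2.88e-06 from edgeR).

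Ptgs2 and Sele showed the same libraries at the top. Ptgs2 (ENSRNOG00000002525), the inducible cyclooxygenase of prostaglandin synthesis, was at 0.936 to 26.8 CPM with a median of 5.77, and its 3 highest libraries were male Nx LPS 1 at 26.8, male IH LPS 2 at 17.6 and female Nx LPS 2 at 17.4 CPM. Sele (ENSRNOG00000002723), an adhesion molecule best known from activated endothelium, was at 0.597 to 35.4 CPM with a median of 5.24, and its 3 highest were male IH LPS 2 at 35.4, female Nx LPS 2 at 22.1 and male Nx LPS 1 at 21.0 CPM. Their rho with Cxcl10 was 0.657 and 0.587, or 0.406 and 0.345 without male Nx LPS 2 and male IH LPS 3, and with Cxcl1 it was 0.972 and 0.937. Vehicle libraries had at most 1.19 CPM of Ptgs2 and 0.151 CPM of Sele. Defining markers of endothelial cells could not be read beside Sele, so a share of endothelial RNA in these libraries was not tested.

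Cxcl9, Il6 and Plat lay nearer to Cxcl1 and Ptgs2 than to Cxcl10. Cxcl9 (ENSRNOG00000022242) encodes a chemokine that shares its receptor with Cxcl10, and its promoter window lies at chr14:16006916-16007165, close to that of Cxcl10 on build GRCr8. It was at 0.117 to 10.96 CPM with a median of 2.84, on 1 to 85 counts, and had a rho of 0.587 with Cxcl10 and of 0.902 with Ptgs2. Without male Nx LPS 2 and male IH LPS 3 these were 0.297 and 0.855. Il6 (ENSRNOG00000010278), a cytokine gene, was at 2.00 to 8.17 CPM on 15 to 58 counts, with a rho of 0.692 with Cxcl10 (0.564 without those libraries) and 0.888 with Cxcl9. Plat (ENSRNOG00000019018), the tissue plasminogen activator, was at 6.69 to 115 CPM in LPS and 8.09 to 31.5 CPM in vehicle libraries, and 5 of the 12 LPS libraries lay above all vehicle libraries. Over the 12 libraries Plat had the lowest rho of the 12 named raised genes besides Cxcl10, 0.413. It was 0.418 without those libraries, above the values of Cxcl9, Sele and Ptgs2, and -0.086 in Nx LPS, and its LPS call was the weakest, at a log2 fold change of 0.83 (SE 0.30, adjusted p = 0.0476 from edgeR). That call was lost in 16 of the 24 fits that left out a library. Csf3 (ENSRNOG00000008525), the granulocyte growth factor, was at 0.139 to 13.9 CPM on 1 to 99 counts, was at 0 in all vehicle libraries, and had a rho of 0.699 with Cxcl10, or 0.552 without those libraries.

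**Figure D4:**
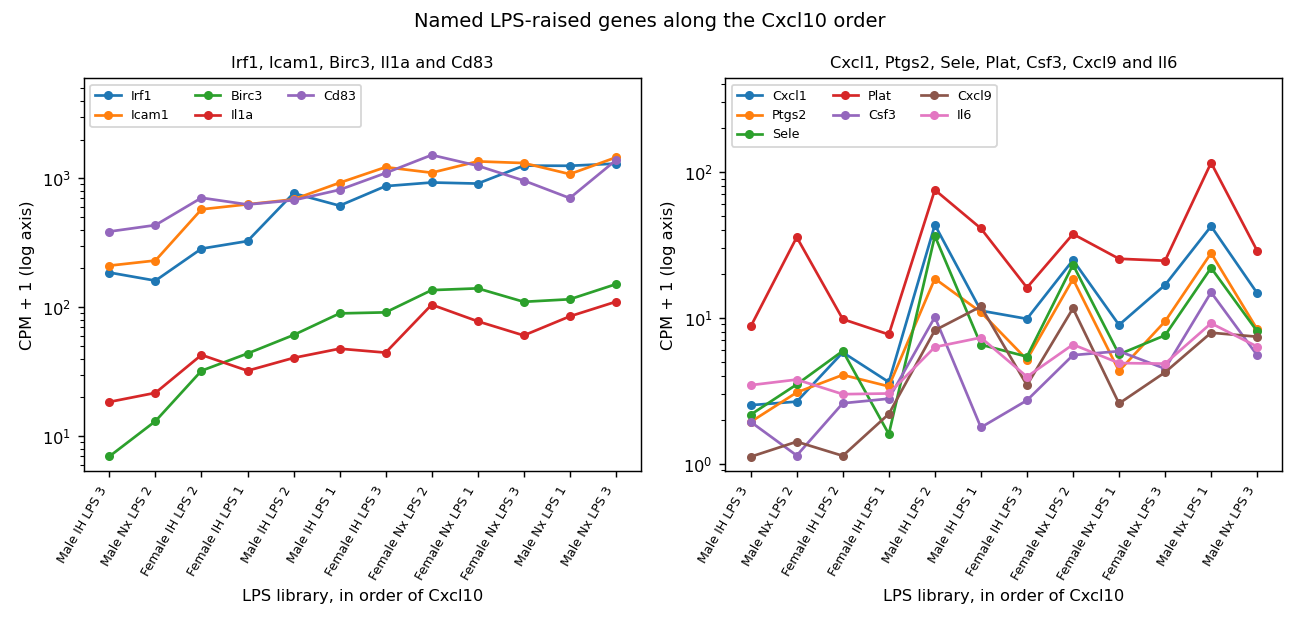
CPM + 1 on a log axis for 12 named LPS-raised genes in the 12 LPS libraries, which stand in the order of Cxcl10. Irf1, Icam1, Birc3 and Il1a climb along the order, while Cxcl1, Ptgs2 and Sele peak together in male IH LPS 2, female Nx LPS 2 and male Nx LPS 1.

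Of the 13 raised genes with names, 11 fell into a pair of sets that were alike within and less alike between. Cd83 and Csf3 were left out of both, with a rho to Cxcl10 of 0.741 and 0.699 and to Cxcl1 of 0.469 and 0.734. Cd83 had a rho of 0.867 with each of Icam1, Birc3 and Il1a, within the range of the first set, so the line between the sets is not sharp. The sets were formed after the values were seen, so their contrast is a description with no test. Within Cxcl10, Irf1, Icam1, Birc3 and Il1a the rho of the 10 pairs was 0.853 to 0.972, and within Cxcl1, Ptgs2, Sele, Cxcl9, Il6 and Plat that of the 15 pairs was 0.734 to 0.972. Between the sets the 30 pairs had 0.217 to 0.734, with a median of 0.587. Without male Nx LPS 2 and male IH LPS 3 the medians were 0.867, 0.842 and 0.388, in that order, and the lowest values 0.745, 0.661 and 0.079. These 10 libraries are among the 12 from which the sets were formed, so this is no independent check of them. An order by Cxcl1 was followed by 66 genes, of which 40 were LPS-raised. Of the 66, 9 (13.6%) were among the 106 that followed Cxcl10, against 0.857% of all 12374 genes. These 9 are 8.49% of the 106. This order was chosen after the values were seen. Orders by Irf1 and by Icam1 were followed by 84 and 111 genes, of which 72 and 40 were among the 106. An order by the mean rank of the 11 other NF-kB targets was followed by 50 genes, of which 12 were among the 106. Against it ran 208 genes, of which 22 were among the 109. Of all genes ranked, 0.857% were among the 106 and 0.881% among the 109, so each of these overlaps lay above the share over all genes.

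**Figure D5:**
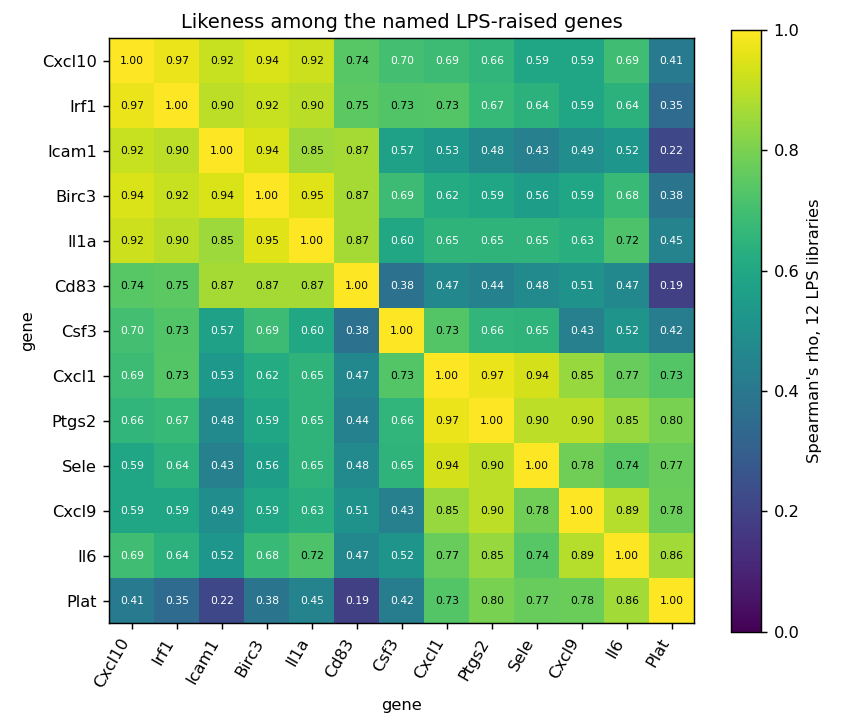
Spearman's rho between each pair of the 13 named LPS-raised genes over the 12 LPS libraries, printed in each cell and coloured from 0 to 1. Cxcl10, Irf1, Icam1, Birc3 and Il1a share values of 0.85 or more, Cxcl1, Ptgs2, Sele, Cxcl9, Il6 and Plat share values of 0.73 or more.

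The remaining followers and non-followers have identifiers but no names. ENSRNOG00000020904 had the highest rho of all raised genes, 0.979 over 12 libraries and 0.964 without male Nx LPS 2 and male IH LPS 3. It was at 1.40 CPM at the lowest, 16.2 at the median and 43.5 at the highest in LPS libraries, against 0.522 to 2.85 CPM in vehicle libraries, with a log2 fold change of 3.69. ENSRNOG00000002794 had the largest LPS effect among raised genes without a rank relation, 8.07 on the log2 scale (adjusted p = 8.73e-08 from edgeR). Its rho was 0.238, and it was highest in the libraries that led for Cxcl1, at 38.0 CPM in male IH LPS 2, 30.3 in male Nx LPS 1 and 26.7 in female Nx LPS 2. Its lowest value was 2.15 CPM in female IH LPS 1, and vehicle libraries had at most 0.245 CPM. ENSRNOG00000019217 had the lowest rho of all lowered genes, tied with ENSRNOG00000000432, at -0.965 over 12 libraries, and -0.952 without male Nx LPS 2 and male IH LPS 3. It was at 11.1 to 81.7 CPM in LPS and 102 to 167 CPM in vehicle libraries, and LPS lowered it by a log2 fold change of -1.91. The groups did not overlap, and the libraries with the least Cxcl10 kept the most of it.

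The 8 named genes that LPS did not change by the test had a rho from -0.511 for Cd7 to 0.448 for S1pr3. With male Nx LPS 2 and male IH LPS 3 left out it was -0.745 for Cd7, 0.697 for S1pr3 and 0.648 for Gpr15l, which had 0.252 over 12 libraries. S1pr3 (ENSRNOG00000014524), a receptor for sphingosine 1-phosphate, shows how the oxygen groups can shape a pooled value. Its rho was -0.429 within Nx LPS and -0.371 within IH LPS, but 0.448 over all 12 libraries, since the Nx LPS libraries, with 3.75 ± 0.482 CPM (SD, n = 6), lay above the IH LPS libraries, with 1.96 ± 0.835 CPM (SD, n = 6). Slc25a45 and AC134224.3 were at a low level in 8 of the 24 libraries, and the same 8 for each gene. The LPS libraries among these were male IH LPS 3 and female IH LPS 2, the 1st and the 3rd in the order. The low level was also seen in 6 of the 12 vehicle libraries, and its part in the order was not tested.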

How the data were processed

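The authors deposited raw counts per Ensembl gene, 1 file for each of 24 libraries. The submitters' processing notes name TopHat2 2.1, HTSeq, edgeR and build rn6. By the study's methods, alignment allowed no new junctions, and reads were counted on the reverse strand. Rows that name no gene were dropped, and CPM was taken on the remaining total (6624453 to 8548714 counts per library). LPS effects were fitted in R 4.3.3 with edgeR 4.0.16 (CPM above 1 in at least 3 of 24 libraries, TMM, a mean for each of 8 groups, quasi-likelihood F test, Benjamini-Hochberg adjusted p below 0.05), with DESeq2 1.42.0 as an alternative. Intervals cover counting error only. In a test on simulated data, 98.5% of 200 genes changed by LPS at 1.5 on the log2 scale were recovered, with 9 false calls among 12646 genes.

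The rule, the members and the lists were chosen with earlier results of these data known. Named genes are the 21 that the study pairs with an identifier, and of the unnamed the raised follower with the highest rho, the raised gene without rank relation with the largest effect, and the lowered gene with the lowest rho (with its tie). Planned lists of pathway genes and cell type markers could not be used without names. Replicate numbers come from the labels. Over 84 same-numbered pairs the correlation of deviations from group means was -0.653 to 0.569 (mean 0.04, 38 over 0.1), so the numbers were not taken to pair libraries. Nothing says whether the libraries of a group came from separate litters, and p-values measure only the spread between them. No 2 libraries of a group agreed within sampling noise (chi-square per degree of freedom of 7.81 or more). Upstream sequences come from RefSeq on GRCr8 and were matched by symbol. No coordinates were converted from rn6.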

Additional observations from a re-analysis of the deposited data

Results flagged for a closer look

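Among 12 sets of 6 LPS libraries and measures examined, 3 held a library far from the others by Dixon's criterion. Log2 Cxcl10 is the value that set the order, and the median rise went with it, so these flags are a description and no independent test. In the 6 Nx LPS libraries, male Nx LPS 2 was far below the rest in log2 Cxcl10 CPM, at 6.95, and in the median rise of genes called raised in IH libraries, at 0.85 on the log2(CPM + 1) scale. In the 6 IH LPS libraries, male IH LPS 3 was far below in log2 Cxcl10 CPM, at 4.40. Total counts and the shares of reads on no gene, at more than 1 place or ambiguous set no library apart in either oxygen group. The cause of the low values was not tested.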

How the results depend on the processing

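The number of genes changed by LPS, 3130, was 3405 with DESeq2, 3132 with RLE size factors, 2817 without a filter and 2754 to 3550 with a library left out. Genes following the order, against it, and LPS-raised among the followers were 106, 109 and 102. They were 513, 478 and 336 with Pearson's r, 216, 273 and 197 at limits of 0.7 and 0.5, and 30, 23 and 30 at 0.9 and 0.7. They were 50, 208 and 33 by the mean rank of 11 other NF-kB targets, 66, 189 and 40 by Cxcl1, and 53, 62 and 50 without male Nx LPS 2 and male IH LPS 3. By Icam1 67 genes ran against it. With a library left out they were 67 to 182, 62 to 255 and 66 to 158. LPS-raised genes without rank relation, 464, numbered 736 without male Nx LPS 2 and male IH LPS 3 and 408 to 620 with a library left out. The difference of Cxcl10 with IH in the exact permutation test, -1.53, was -1.33 without those libraries and -2.22 to -0.63 with a library left out. These alternatives of the exact test and the order by Cxcl1 were chosen after the values were seen, and the cause of these changes was not tested.

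With the replicate number as a block, 3135 genes were changed by LPS, and with log2 values centred on it 257 genes followed the order, 290 ran against it and 162 of the followers were LPS-raised. Of the 106 followers 53 remained, and of the 109 against it 47. The block ended no LPS call of a named gene. With 12 libraries, and 6 in an oxygen group, a single exchange of ranks can move a gene past the limits, and genes with few counts, such as Csf3, Cxcl9 and Il6, are ranked with more error.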
